A study of Mus musculus with 21 samples.

Results

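Hnf4a bound 919 regions in hepatocyte-like cells made with Foxa3 that carried no Foxa3 peak and that were not Hnf4a peaks in the cells made with Foxa1 or Foxa2. These regions were chosen by the presence and absence of peaks in deposited lists: they were found by pooling the Hnf4a peaks of the 3 kinds of hepatocyte-like (iHep) cells, merging peaks that share at least 1 bp into 4813 regions, keeping the 1728 regions held by the Foxa3 cells alone, and removing the 809 of these that overlap an iHep Foxa3 peak. Each of the 919 regions is a single peak of the iHep Hnf4a list of the Foxa3 cells, and together they make up 36.7% of its 2506 peaks. Of all 4813 merged regions 22.4% overlap an iHep Foxa3 peak, a share that the choice of the regions used. The count depends on how many peaks the lists hold: it was 536 with the 3 iHep Hnf4a lists at equal length and 585 with the upper 50% of every list by score.

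The binding sites come from chromatin immunoprecipitation with sequencing (ChIP-seq) in mouse cells of the strain C57BL/6. Embryonic fibroblasts taken 13.5 days after conception received retroviruses for Hnf4a together with Foxa1, Foxa2 or Foxa3, and were studied 48 hours later or as iHep cells. Below, "the Foxa3 line" means the cells given Foxa3 at either stage, and likewise for Foxa1 and Foxa2, and every line carries added Hnf4a. Each line and stage has 1 library for its own Foxa protein, 1 for Hnf4a and at least 1 input, and the inputs were not analysed here. One more library comes from cells with Hnf4a and del2, a Foxa3 mutant carrying a Ty1 tag that served for the precipitation, and its title gives 48 hours while its stage label says iHep.

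The sources used here do not say whether an iHep line is a single clone or which promoter drives the added genes. No expression was measured, so the hepatocyte-like state itself was not checked. Read depth is unknown because the files hold peaks and no read counts. With 1 library in each group there is no replicate error and no p-value, and intervals in parentheses are 95% Wilson intervals that cover counting error over regions only. Regions that lie close together share signal, which these intervals do not cover. Titles of the iHep libraries give codes that differ between the lines (R170 for the iHep Foxa3 line), and there line, code and library cannot be told apart. Within the iHep Foxa2 line the codes differ too, R215 for Foxa2 and R242 for Hnf4a, each with its own input. The iHep titles also carry a replicate number, which is 3 in the Foxa3 line and 1 in the other lines. At 48 hours the libraries of the Foxa2 and Foxa3 lines share a code, R209, and those of the Foxa1 line have R222. Each Foxa protein was also mapped with its own antibody in its own line, so protein, antibody and line cannot be told apart either.

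Hnf4a is a nuclear receptor that binds DNA as a homodimer and controls many genes of lipid, glucose and drug metabolism in hepatocytes. Foxa proteins are forkhead factors, and they can bind their sites in closed chromatin and are needed for the start of liver development. In adult liver the binding of Hnf4a and of Foxa proteins often lies in the same enhancers. Foxa1 and Foxa2 are close relatives, and Foxa3 is the more distant member of the family.

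The authors give each peak a score, whose formula the labels and files do not state, and it is used here only within a list. By that score the 919 regions belonged to the weaker side of their list. Their median score was 9.58, with the middle 50% between 7.90 and 11.4 and the extremes at 5.03 and 27.3. The 809 regions of the Foxa3 line alone that lie at Foxa3 had a median of 10.01, and the peaks shared with another line had a median of 11.1 without Foxa3 and 11.6 with Foxa3. From the lowest to the highest scoring 25% of the list, regions without Foxa3 and without another line made up 45.8%, 40.6%, 34.8% and 25.6% of the peaks. None of the 10 highest scoring peaks of the list was among the 919, and 14 of the highest scoring 100 were. Scores and widths come from the list that chose the regions, so these values describe the choice and test nothing.

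The regions were slightly narrower than the rest of their list. Their median width was 189 bp, with the middle 50% between 162.5 and 236 bp, and 833 bp was the largest. The median was 20 bp larger for the regions of the Foxa3 line alone at Foxa3, 33 bp larger for peaks shared with another line without Foxa3 and 82.5 bp larger for shared peaks at Foxa3. The narrowest width in the list is 156 bp, and 133 of the 919 regions (14.5%) had exactly that width, against 10.1% of those at Foxa3 and 5.66% of the peaks shared with another line without Foxa3. The rank correlation of score and width over the 919 regions was 0.15, from a single library.

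The 10 highest scoring regions overlapped no Foxa peak of any list, as was so for 811 of all 919. The choice itself bars an iHep Foxa3 peak. Several of the 10 lay beside a Foxa peak. The highest score, 27.3, belonged to a 207 bp region at chr4:40704678-40704884 (mm9, first base counted as 1), whose nearest iHep Foxa3 peak was 34416 bp away. Next came chr11:76220454-76220658 with a score of 25.7, chr7:51629432-51629589 with 22.9, chr11:77795304-77795655 with 22.5 and chr10:3187112-3187321 with 22.1. Ranks 6 to 10 were chr12:56404024-56404210, chr6:126889761-126889924, chr6:113256898-113257130, chr6:124880434-124880848 and chr9:41391936-41392132, with scores from 21.3 down to 20.4. Of the 10, 4 had an iHep Foxa3 peak within 1 kb, against 28.2% of all 919. The gaps were 548, 79, 471 and 528 bp for ranks 4, 8, 9 and 10. The region of rank 5 had an iHep Foxa2 peak 96 bp away. A 48-hour Hnf4a peak overlapped 3 of these 10, and 10 of all 919.

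**Figure D1:**
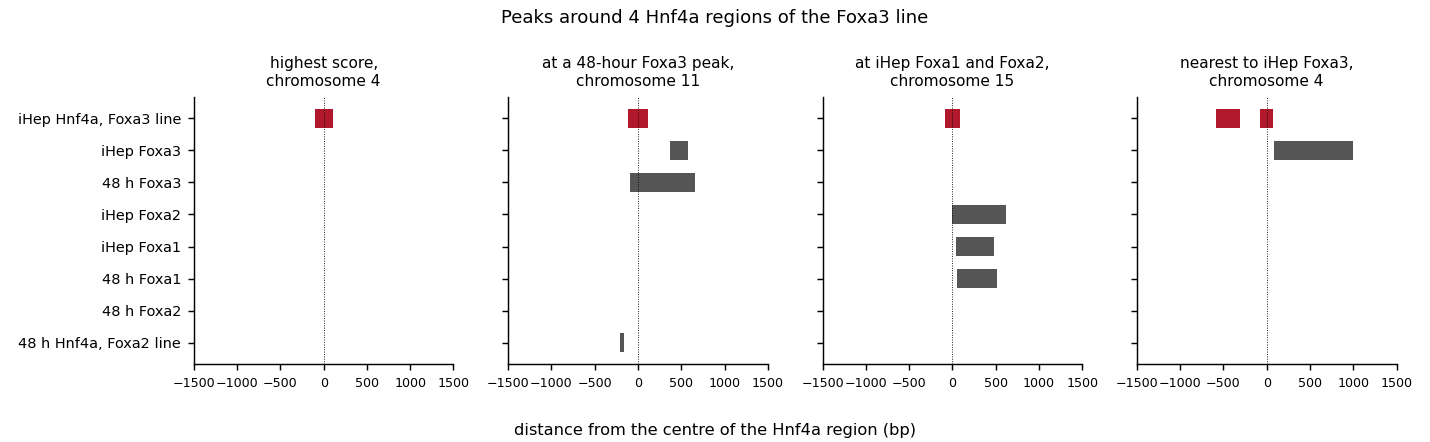
Peaks of the lists around 4 of the regions, drawn as bars by their distance in bp from the centre of the Hnf4a region (dotted line), with the iHep Hnf4a peaks of the Foxa3 line in red and other peaks in grey. The highest scoring region stands alone, while the other 3 lie at the edge of a Foxa peak.

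The widest regions differed in score. The widest, 833 bp at chr11:45651233-45652065, had a score of 10.1 and overlapped iHep Foxa2, 48-hour Foxa1 and 48-hour Foxa2 peaks. The next, 741 bp at chr19:61302332-61303072 and 675 bp at chr3:32635486-32636160, scored 12.6 and 19.7 and overlapped no Foxa peak.

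Many of the regions had a Foxa3 peak close by that they did not touch. A gap is the number of bases between the edges of a region and the nearest peak. The median gap to the nearest iHep Foxa3 peak was 15259 bp, and this value moved with the processing. It was 2855 bp when a Foxa3 peak counted as present only with its centre within 200 bp. That setting gives 1193 regions, and some of them overlap a Foxa3 peak, which shortens the gap by construction. With the upper 50% of every list the median gap was 38189 bp. A gap under 200 bp was found for 110 regions, 200 to 500 bp for 95 and 500 bp to 1 kb for 54. There were 98 regions at 1 to 5 kb, 55 at 5 to 10 kb, 344 at 10 to 100 kb and 163 farther away.

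In all 259 of 919 regions (28.2%, 25.4% to 31.2%) lay within 1 kb of an iHep Foxa3 peak without touching it. Over all 3734 merged Hnf4a regions without a Foxa3 peak this share was 10.1%, the 919 included. It was 5.64% (3.6% to 8.74%) for the 319 such regions held by all 3 lines, 4.69% (3.12% to 7.0%) for the 469 of the Foxa1 line alone, 3.33% (2.48% to 4.47%) for the 1260 of the Foxa2 line alone and 3.75% (2.47% to 5.66%) for the 560 held by the Foxa1 and Foxa2 lines. Regions that the Foxa3 line shared with another line, also without a Foxa3 peak, stood at 6.46% (4.66% to 8.90%). The interval of the 919 regions lies above all of these. All these groups lack an overlapping Foxa3 peak, and the comparison uses the Foxa3 list that took part in the choice, so it is given as a description.

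**Figure D2:**
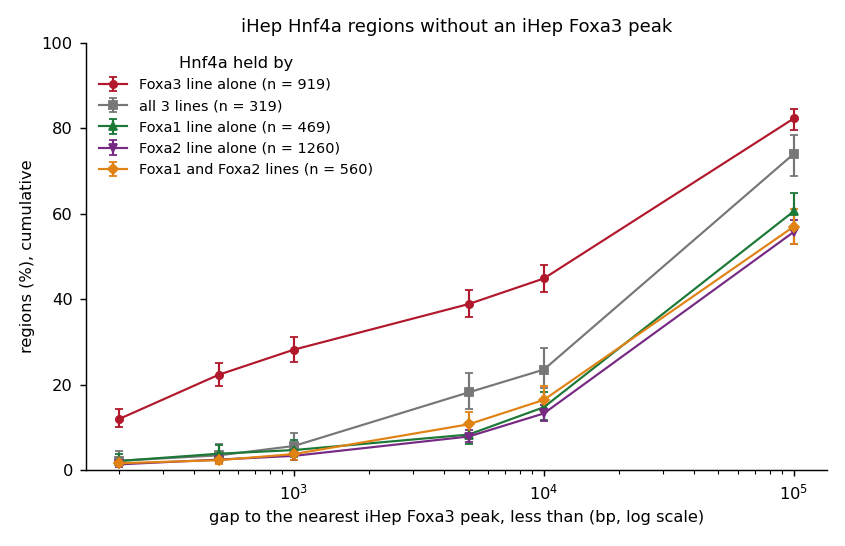
Cumulative share of iHep Hnf4a regions without an iHep Foxa3 peak (y axis, percent) whose gap to the nearest iHep Foxa3 peak is under a given length (x axis, bp, log scale), by the lines that hold the Hnf4a region; bars are 95% Wilson intervals. Within 1 kb the regions of the Foxa3 line alone reach 28.2%, and the other 4 groups 3.33% to 5.64%.

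At the edge of the rule the difference between inside and outside was a few bases. The nearest regions inside it were chr4:88583804-88583959 with a gap of 1 bp and a score of 9.04, chr14:32973628-32974015 with 5 bp and 9.83, and chr17:89027855-89028010 with 12 bp and 9.21. Just outside it were chr8:94885056-94885238, which overlaps a Foxa3 peak by 8 bp and has a score of 5.95, chr9:66896312-66896554 with 14 bp and 7.60, and chr15:102156641-102156818 with 16 bp and 6.95. There were 16 regions with a gap under 50 bp and 12 excluded ones with an overlap under 50 bp.

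At the other end, the regions farthest from Foxa3 lay in stretches empty of it. The region at chr1:148935861-148936046 had its nearest iHep Foxa3 peak 3084606 bp away, chr9:17479507-17479778 had it 2317367 bp away and chr4:111409885-111410064 had it 2060074 bp away. These 3 regions had an Hnf4a peak of another line 13 bp, 126 bp and 16 bp away, so all 3 lay beside Hnf4a binding of other cells, and the third also overlapped an iHep Foxa2 peak.

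The Foxa3 peaks beside the regions tended to rank low in their own list. Among the 259 regions with one within 1 kb, 103 (39.8%, 34.0% to 45.8%) had a neighbour from the upper 50% of the Foxa3 list by score, and the median neighbour stood at the percentile 38.3 of that list. For 80 of the 259 (30.9%, 25.6% to 36.8%) the neighbour was also a Foxa3 peak at 48 hours, against 43.8% (43.0% to 44.7%) of all 12661 iHep Foxa3 peaks. For 65 of them (25.1%, 20.2% to 30.7%) the neighbouring Foxa3 peak itself overlapped a further Hnf4a peak of the line, against 6.93% (6.5% to 7.38%) of all iHep Foxa3 peaks. More than 1 Foxa3 peak lay within 1 kb of 81 of the 259. Neighbours were counted once per region, while the reference shares count all iHep Foxa3 peaks. The Foxa3 list took part in the choice, which removed regions that overlap its peaks, so these values are a description. The scores of regions near and far from Foxa3 had medians of 9.41 and 9.62.

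Many of the regions were also close to Hnf4a binding in the other lines, although they did not overlap it. An Hnf4a peak of the Foxa1 or Foxa2 line lay within 1 kb of 233 regions (25.4%, 22.6% to 28.3%), where 18.2% of all 1728 regions of the Foxa3 line alone had one. For 50 regions it lay within 50 bp. In 117 of the 233 cases the neighbouring region of another line also held an Hnf4a peak of the Foxa3 line. Of all 3085 regions held by the Foxa1 or Foxa2 line, 526 without Foxa3 and 137 at Foxa3 held one. In 125 of the 233 cases the neighbouring region was held by both other lines, and that share over all 3085 is not given here. Those neighbouring regions had a median width of 453 bp, against 370 bp for all 3085 regions held by the Foxa1 or Foxa2 line.

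Peaks of the list also lay close to each other. Of the 919 regions 283 (30.8%, 27.9% to 33.9%) had another Hnf4a peak of the Foxa3 line within 1 kb. The 809 regions at Foxa3 stood at 36.7% (33.5% to 40.1%), and these intervals overlap. Over all merged Hnf4a regions without Foxa3 the share was 14.1%, but many of those are not held by the Foxa3 line. It was 4.69% for those of the Foxa1 line alone and 5% for those of the Foxa2 line alone. In the whole Hnf4a list of the Foxa3 line 36.9% of peaks (35.0% to 38.8%) had a neighbour of the same list within 1 kb, while it was 3.86% (3.02% to 4.93%) in the Foxa1 line and 5.92% (5.05% to 6.91%) in the Foxa2 line. The median peak width was 205 bp in the Foxa3 line and 308.5 and 361 bp in the others. With Hnf4a peaks up to 500 bp apart joined, 632 regions met the same rule. The part of width and spacing in the other results was not tested.

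Put together, 521 of the 919 regions had an iHep Foxa3 peak, an Hnf4a peak of another line or a further Hnf4a peak of their own line within 1 kb. The other 398 (43.3%, 40.1% to 46.5%) had none of these. Both Foxa3 and an Hnf4a peak of another line lay within 1 kb of 53 regions, Foxa3 without the other of 206, and the reverse held for 180. A further peak of their own list was within 1 kb for 141 of the 233 regions near Hnf4a of another line and for 95 of the 259 near Foxa3. The median score of the 398 isolated regions was 9.66 and their median width 182.5 bp.

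The regions seldom lay at the Foxa proteins of the other lines, whose own peak lists took no part in the choice. The choice did exclude Hnf4a peaks of those lines, and 3085 of the 4813 merged regions hold one. The lower shares of the 919 are therefore not independent of the choice. This limit also holds for the comparisons with all merged regions in the paragraphs that follow. An iHep Foxa2 peak overlapped 70 of 919 regions (7.62%, 6.07% to 9.51%), where 14.8% of all 4813 merged Hnf4a regions had one. An iHep Foxa1 peak overlapped 21 (2.29%, 1.5% to 3.47%), against 8.25% of all merged regions. The 319 regions without Foxa3 that all 3 lines held stood far higher, at 31.0% (26.2% to 36.3%) for Foxa2 and 21.6% (17.5% to 26.5%) for Foxa1. Among regions without Foxa3 held by the Foxa1 line alone, 19.2% (15.9% to 23.0%) were at iHep Foxa2. Among those held by the Foxa2 line alone, 8.57% (7.15% to 10.2%) were at iHep Foxa1. The 809 regions of the Foxa3 line alone at Foxa3 stood at 2.22% (1.41% to 3.49%) for Foxa2 and 0.865% (0.420% to 1.78%) for Foxa1. For Foxa2 the intervals of the 919 and the 809 regions are apart, and for Foxa1 they overlap. By peak centres at most 200 bp apart the Foxa2 shares were 2.50% (1.67% to 3.73%) of the 919 and 1.36% (0.761% to 2.42%) of the 809, and those intervals overlap. With centres within 200 bp used in the choice as well, 2.1% of the regions were at iHep Foxa2 and 0.922% at iHep Foxa1. The upper 50% of every list gave 4.62% and 1.37%, and with an overlap of 50% of the shorter interval 4.65% were at iHep Foxa2. The Foxa2 list is the longer of the 2, with 10330 against 3435 peaks, and with Foxa lists of equal length, chosen after seeing the data, the shares of the 919 regions were 2.61% for Foxa2 and 2.29% for Foxa1.

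Few of the regions were at Foxa1 or Foxa2 at 48 hours. A 48-hour Foxa1 peak overlapped 24 regions (2.61%, 1.76% to 3.86%), against 7.52% of all merged Hnf4a regions. A 48-hour Foxa2 peak overlapped 16 (1.74%, 1.07% to 2.81%), against 5.15%. The regions at Foxa3 had 0.989% (0.502% to 1.94%) and 1.73% (1.03% to 2.88%), and the intervals overlap those of the 919 regions for both lists. With centres within 200 bp in the choice both 48-hour shares of the regions were 0.671%, with Foxa lists of equal length they were 1.31% and 0.762%, and the upper 50% of every list gave 1.54% for Foxa1. Of the 72 regions at iHep Foxa1 or Foxa2 (7.83%, against 15.5% of all merged regions), 26 were also at a 48-hour Foxa1 or Foxa2 peak. A further 6 regions were at such a peak at 48 hours alone. The matching counts for the 747 merged regions at iHep Foxa1 or Foxa2 are not given here, so it is not known if these are usual.

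**Figure D3:**
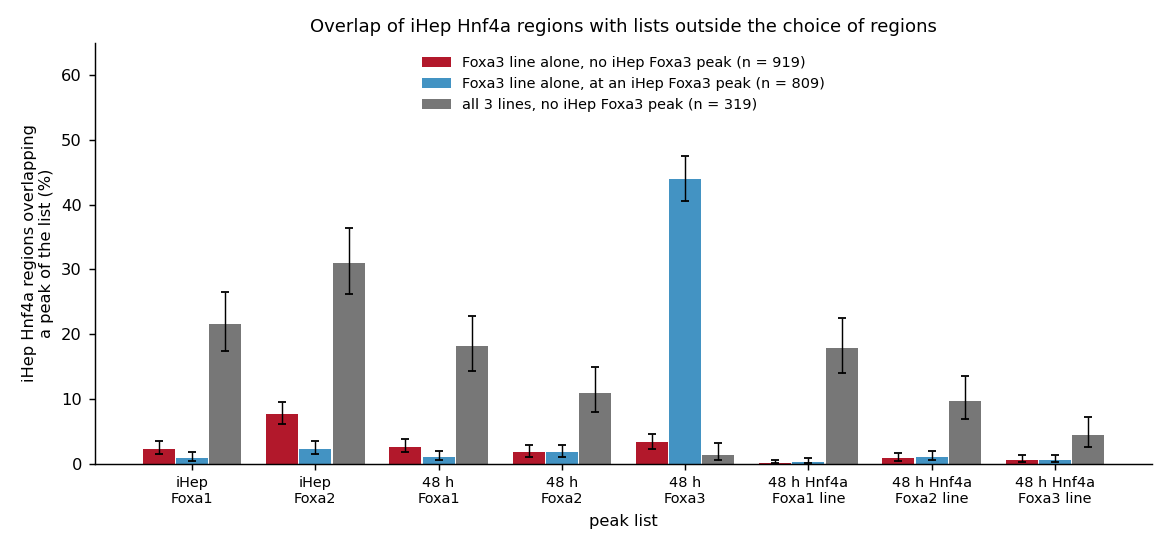
Share of iHep Hnf4a regions (y axis, percent) that overlap a peak of each list (x axis) by at least 1 bp, for the regions of the Foxa3 line alone without Foxa3 (red, 919), those at Foxa3 (blue, 809) and regions without Foxa3 held by all 3 lines (grey, 319); bars are 95% Wilson intervals. The red bars stay at or below 7.62%, and the blue bar for 48-hour Foxa3 reaches 44.0%.

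Regions at a Foxa2 peak lay to the side of it. For the 70 regions that overlap an iHep Foxa2 peak the median distance between the centres was 240.25 bp, against 106 bp for the 99 regions without Foxa3 that all 3 lines held at Foxa2. Of the 144 regions whose centre lay under 1 kb from that of a Foxa2 peak, 23 (16.0%, 10.9% to 22.8%) had it at most 200 bp away, while 84 of 103 (81.6%, 73.0% to 87.9%) of the regions of all 3 lines did. The 809 regions at iHep Foxa3 had 11 of 53 (20.8%, 12% to 33.5%), an interval that overlaps that of the 919. The bin with the most regions was 200 to 400 bp, with 58, against 21 under 200 bp.

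By the choice of the regions, none overlaps an Hnf4a peak of the Foxa2 line, and the part of this in their position was not tested. The split that follows cannot test it, because the choice bars such an overlap in both parts. An Hnf4a peak of another line lay within 1 kb of 71 of the 144 regions, and there 9 (12.7%, 6.81% to 22.4%) were within 200 bp of the Foxa2 centre. Among the 73 with no such peak it was 14 (19.2%, 11.8% to 29.7%), and the intervals of both parts overlap. Of the 70 regions at a Foxa2 peak 24 (34.3%, 24.2% to 46.0%) shared that Foxa2 peak with an Hnf4a peak of the Foxa2 line, where 4.95% (4.55% to 5.38%) of all iHep Foxa2 peaks hold one. The first share is counted per region, at Foxa2 peaks that already hold an Hnf4a peak of the Foxa3 line. The second counts all 10330 iHep Foxa2 peaks, with or without Hnf4a, so the contrast is a description.

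**Figure D4:**
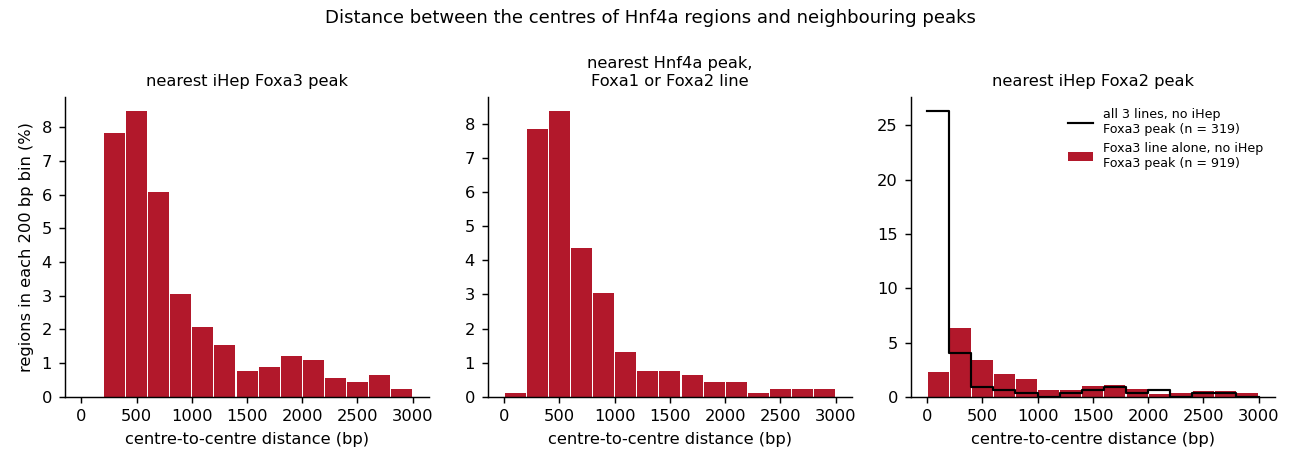
Share of the 919 regions (y axis, percent in each 200 bp bin) by the distance in bp between their centre and the centre of the nearest iHep Foxa3 peak (left), Hnf4a peak of the Foxa1 or Foxa2 line (middle) and iHep Foxa2 peak (right), with the 319 regions of all 3 lines without Foxa3 as a black line on the right. The red bars are highest at 200 to 600 bp, the choice leaves the first bin at or near 0 in the left and middle panels but not on the right, and the black line is highest under 200 bp.

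The strongest regions at both iHep Foxa1 and iHep Foxa2, of 19 in all, were chr15:68802554-68802725 with a score of 13.1, chr15:78362887-78363049 with 12.7 and chr6:99118995-99119170 with 12.7. The first also overlapped a 48-hour Foxa1 peak and had its nearest iHep Foxa3 peak 711601 bp away. Of the 72 regions at iHep Foxa1 or iHep Foxa2, 2 overlapped iHep Foxa1 without iHep Foxa2 and 51 the reverse. Over all 4813 merged regions 397 were at iHep Foxa1, 710 at iHep Foxa2 and 747 at either. There, too, most regions at iHep Foxa1 were also at iHep Foxa2. With the 919 regions split by score into 4 nearly equal parts, 24, 15, 12 and 19 of them overlapped iHep Foxa2 from the lowest to the highest part.

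Early Foxa3 binding was rare at these regions and frequent at those with iHep Foxa3. A 48-hour Foxa3 peak overlapped 30 of the 919 regions (3.26%, 2.30% to 4.62%) and 356 of the 809 regions at iHep Foxa3 (44.0%, 40.6% to 47.4%), with 11.6% over all merged Hnf4a regions. Both Foxa3 lists map the same protein in the same line, and the choice used the iHep one, so this contrast is a description. Against all 3734 merged regions without iHep Foxa3, the 919 included, of which 1.71% (1.34% to 2.18%) were at 48-hour Foxa3, the 919 stood higher. The 319 regions of all 3 lines had 4 (1.25%, 0.489% to 3.18%), and that interval overlaps the one of the 919.

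Of the 30 regions, 18 had an iHep Foxa3 peak within 1 kb, 16 of them under 300 bp away, and 11 had none within 10 kb. The regions near an iHep Foxa3 peak were at a 48-hour Foxa3 peak in 18 of 259 cases (6.95%, 4.44% to 10.7%), and the others in 12 of 660 (1.82%, 1.04% to 3.15%). The share of all the regions was 5.28% with centres within 200 bp in the choice, a setting that keeps some regions overlapping iHep Foxa3. It was 1.76% among the 398 isolated regions. The highest scoring of the 30 were chr11:48630586-48630811 with 16.7, chr4:155483651-155483822 with 14.8 and chr13:86185985-86186236 with 13.8. The first had an iHep Foxa3 peak 253 bp away, within the bounds of the same 48-hour Foxa3 peak, and the other pair had theirs 87561 and 756509 bp away. In the same 4 parts by score there were 3, 7, 11 and 9 regions at 48-hour Foxa3.

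No region overlapped both a 48-hour Foxa3 peak and a Foxa1 or Foxa2 peak. The 30 at a 48-hour Foxa3 peak and the 78 at a Foxa1 or Foxa2 peak of either stage had no region in common. The remaining 811 overlapped no peak of any Foxa list. The groups of 30 and 78 are small, and the same count over all merged regions is not given here. The absence also depends on the 1 bp rule. Among the 30, chr1:173432469-173432625, named after its values were seen, lay 15 bp from iHep Foxa1 and 5 bp from iHep Foxa2. In all, 108 regions (11.8%, 9.83% to 14%) overlapped at least 1 of the 5 Foxa lists that the choice did not use, against 28.4% of all merged Hnf4a regions. The most frequent patterns were iHep Foxa2 alone with 37 regions, 48-hour Foxa3 alone with 30, and iHep Foxa1, iHep Foxa2 and 48-hour Foxa1 together with 9. The median score was 9.24 for the 78, 10.2 for the 30 and 9.58 for the 811.

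Hnf4a itself was rarely seen at these regions at 48 hours. The 48-hour Hnf4a list of the Foxa3 line overlapped 5 of the 919 (0.544%, 0.233% to 1.27%), that of the Foxa2 line 8 (0.871%, 0.442% to 1.71%) and that of the Foxa1 line 1 (0.109%, 0.0192% to 0.614%). Over all merged Hnf4a regions the shares were 1.87%, 2.74% and 3.41% in the same order. Any of the 3 lists overlapped 10 regions (1.09%, 0.592% to 1.99%), against 5.15% of all merged regions. It overlapped 10 of the 809 regions at Foxa3 (1.24%, 0.673% to 2.26%), an interval that overlaps that of the 919, and 69 of the 319 regions of all 3 lines without Foxa3 (21.6%, 17.5% to 26.5%). The 48-hour Hnf4a lists are short, at 370 to 453 peaks, and binding below their limit of detection would not appear. With the iHep Hnf4a lists at equal length 2.05% of the regions had an early Hnf4a peak.

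The regions with early Hnf4a included several of the strongest. Ranks 2, 4 and 6 of the 919 by score were among the 10: chr11:76220454-76220658, chr11:77795304-77795655 and chr12:56404024-56404210. The first and the last of these were held at 48 hours in the Foxa2 and Foxa3 lines, and the middle one in the Foxa2 line alone. All 4 regions held in 2 lines at 48 hours were held in these 2, whose libraries share a code, and the part of that was not tested. Of the 10 regions 2 also overlapped a Foxa peak, in both cases a 48-hour Foxa3 peak, at chr10:88193881-88194113 and at chr11:99091789-99091945, and both were named after their values were seen. The single peak of the tagged del2 mutant of Foxa3 lay 101786 bp from the nearest of the regions and so overlapped none of them. It also overlapped 0 of the 4813 merged regions.

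The regions were spread over all 19 autosomes, with 3 on chromosome X and 0 on chromosome Y. There were 70 on chromosome 1, 69 on chromosome 7, 68 each on chromosomes 4 and 11, and 25 on chromosome 18. Relative to the span of a chromosome up to the last peak of any list, chromosome 19 with 0.571 regions per Mb and chromosome 11 with 0.558 were the densest, and chromosome 3 with 0.244 the sparsest autosome. The density followed that of the other peaks, with a rank correlation over the 19 autosomes of 0.89 with all merged Hnf4a regions, which include the 919, and of 0.77 with iHep Foxa3 peaks. Chromosomes share the same libraries, so these correlations are descriptions.

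Few Hnf4a regions of any kind lay on chromosome X. It held 0.326% of the 919 (0.111% to 0.955%), 1.39% of all merged Hnf4a regions (67 of 4813) and 6.31% of the span. Of iHep Foxa3 peaks 1.45% lay on it. The regions of the Foxa3 line alone at Foxa3 had 1 on chromosome X.

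The clearest difference from the regions at Foxa3 was on chromosome 6, which held 63 of the 919 (6.86%, 5.39% to 8.68%) and 90 of the 809 (11.1%, 9.14% to 13.5%), with intervals that do not overlap. Chromosome 6 was singled out among 20 chromosomes after their values were seen. On chromosome 11 the shares were 7.40% (5.88% to 9.27%) and 9.89% (8.02% to 12.1%), and these intervals overlap.

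**Figure D5:**
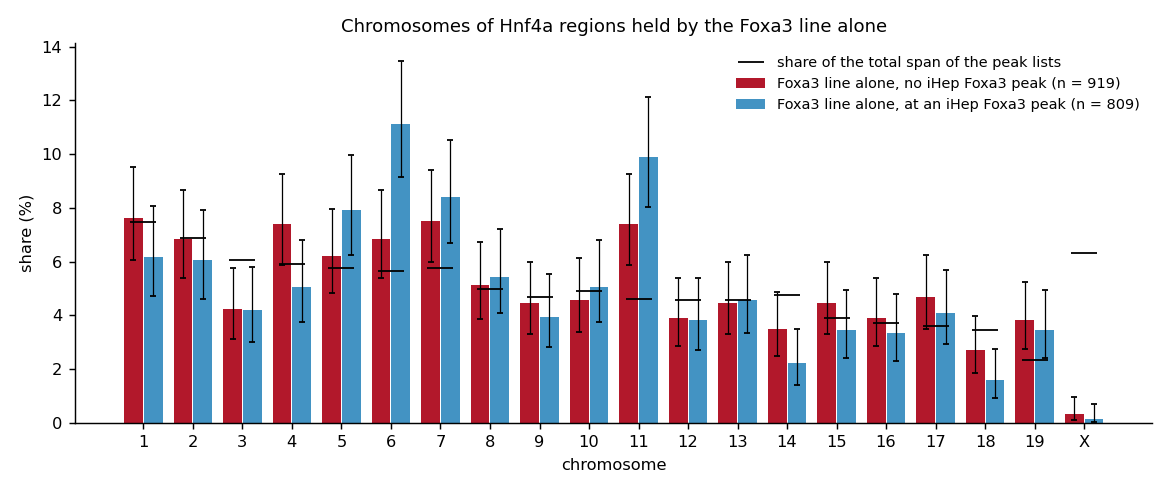
Share of regions on each chromosome (y axis, percent; x axis, chromosome) for the Hnf4a regions of the Foxa3 line alone without an iHep Foxa3 peak (red, 919) and at one (blue, 809); bars are 95% Wilson intervals and black dashes give the chromosome's share of the total span of the peak lists. The blue bar stands above the red bar on chromosome 6, at 11.1% against 6.86%, and both are near 0 on chromosome X.

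Most of the regions stood alone among their own kind. The median gap from one to the next nearest was 261971 bp, and 146 of the 919 had another within 1 kb. These formed 59 pairs, 8 runs of 3 and 1 run of 4. The run of 4 lay at chr2:146660317-146662192, over 1876 bp, 339 bp from an iHep Foxa3 peak at its nearest and 257887 bp from the nearest Hnf4a peak of another line. The tightest run of 3 spanned 781 bp at chr8:125575284-125576064, with 7977 bp to Foxa3 and 391165 bp to Hnf4a of another line. In windows of 5 Mb the most regions, 12, lay on chromosome 9 from 60000001 to 65000000, where 2 regions of the Foxa3 line alone were at Foxa3 and 24 merged Hnf4a regions lay in all.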

How the data were processed

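Each of 13 samples has a peak list that the authors deposited, giving position, name and a score per peak (unit of the score not stated); 8 inputs were not analysed here. Per the submitters' processing notes, mm9 and bedtools 2.16.2, BWA 0.6.2 and MACS2 2.1.0 were used, in roles that are not stated, nor is any use of the inputs. Samples were grouped by title. Intervals were merged and overlapped at 1 bp or more with pandas 2.3.3, NumPy 2.4.6 and SciPy 1.17.1 in Python 3.11.15, with figures from matplotlib 3.10.9, and the code was tested on simulated data. Regions named are the 10 of highest score, the 3 widest, the 3 nearest to and farthest from Foxa3, those just outside the rule, the 3 strongest of each overlap class and the tightest runs. The regions, comparisons and lists were chosen with earlier results of these data known. The annotation at hand is on another build (GRCm38.p6), so no gene, sequence or motif was assigned to a position. Alternatives varied overlap, score limit, list length, merging, margins and chromosomes.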

Additional observations from a re-analysis of the deposited data

How the results depend on the processing

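For 11 results, 104 values were recomputed under 8 planned settings and 2 chosen after seeing the data. Of these 66 stayed within the main interval, or within 1.5 times for the number of regions, and 38 moved. When shared meant 50% of the shorter interval or more, the median width was 195 bp, the gap to Hnf4a of other lines 30586 bp and the iHep Foxa2 share 4.65%. With peak centres within 200 bp the width was 195 bp, the gap to iHep Foxa3 2855 bp, and the shares were 0.922% for iHep Foxa1, 2.1% for iHep Foxa2, 0.671% for each of 48-hour Foxa1 and Foxa2 and 5.28% for 48-hour Foxa3. In the upper 50% of every list there were 585 regions with a score of 12.3, a width of 202 bp, gaps of 38189 bp to Foxa3 and 215328 bp to other Hnf4a, and shares of 1.37% for iHep Foxa1, 4.62% for iHep Foxa2 and 1.54% for 48-hour Foxa1. With iHep Hnf4a lists of equal length there were 536 regions, with a score of 11.3, a gap to other Hnf4a of 105093 bp, and 4.66% at 48-hour Foxa3 and 2.05% at 48-hour Hnf4a. Merging Hnf4a peaks up to 500 bp apart gave a gap to other Hnf4a of 120616 bp and 5.85% at iHep Foxa2. Regions over 1 kb from iHep Foxa3 had a gap to it of 38305 bp and 1.82% at 48-hour Foxa3. Regions over 1 kb from Hnf4a of other lines had a gap to it of 135726 bp and 5.83% at iHep Foxa2. With Foxa lists of equal length the shares were 2.61% for iHep Foxa2, and 1.31%, 0.762% and 2.29% for 48-hour Foxa1, Foxa2 and Foxa3. The 398 regions over 1 kb from all of these had a width of 182.5 bp, gaps of 38756.5 and 119330 bp to Foxa3 and other Hnf4a, and 1.76% at 48-hour Foxa3. Where margins or stricter limits are set, gaps lengthen by construction. With centres within 200 bp some regions that overlap an iHep Foxa3 peak enter the choice, and the gap to Foxa3 shortens by construction. Of the 809 regions that overlap one, 44.0% were at 48-hour Foxa3. For the other moved values the cause was not tested. On autosomes alone no value moved. No paired analysis was possible because each group has 1 library. Depth is unknown, so an absent peak may be undetected binding.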
